A study of Mus musculus with 2 samples.

Results

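Integrins are the transmembrane receptors, each a pair of an alpha and a beta subunit, by which cells hold the extracellular matrix, and the focal adhesion proteins are the cytoplasmic proteins that switch integrins on and tie them to actin. The genes were taken by symbol as every integrin alpha subunit (Itga followed by a number, v, l, m, x, e or d) and beta subunit (Itgb followed by a number), together with Tln1, Tln2, Vcl, Ptk2, Pxn, Ilk, Zyx, Fermt1, Fermt2, Fermt3, Parva, Parvb, Lims1 and Bcar1. This gave 40 genes of the 20211 symbols measured, namely 18 alpha subunits, 8 beta subunits and 14 focal adhesion proteins.

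RNA came from primary perivascular cells (PVCs, here PCs) of the aorta of C57BL/6 mice, with 1 wild type (WT) library and 1 library from Kai1 knockout (Kai1 KO) mice. Kai1, also named Cd82, encodes a tetraspanin, a membrane protein of a family known to bind integrins sideways in the membrane. The labels describe the same culture for both genotypes, in DMEM containing 10% FBS, whereas the study's methods name a higher serum share for expanding primary PVCs. How the knockout allele was made, and how many animals or cultures stand behind each library, is not given in the sources used here. With 1 library per genotype nothing below has a replicate check, no p-value was computed, and "lower" and "higher" compare these 2 libraries, not the genotypes as such.

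The values were RPKM, reads scaled to transcript length in kilobases and to the mapped reads of the library in M, so that levels of different genes can be set side by side. Over all 20211 symbols the RPKM summed to 884463 in WT and 1238190 in Kai1 KO, and scaling to equal sums was not tried. The steps of the low values corresponded to about 29.6 M reads for WT and 26.6 M reads for Kai1 KO. From these depths the reads behind each gene were estimated, and the ratio of the libraries was given a 95% exact binomial interval, called the counting interval here, which covers counting error only. Cd82 itself had an RPKM of 12.8 in WT and 2.62 in Kai1 KO, or 20.5% of WT. Of the mural markers Acta2, the smooth muscle actin, had an RPKM of 3823 and 2580 and Pdgfrb, the PDGF receptor of mural cells, 44.7 and 31.6. Cspg4, which encodes the NG2 used to mark pericytes in the study, had 15.4 and 8.27. The pericyte markers Rgs5 and Kcnj8 stayed below 1 in both libraries. The 4 Y-linked genes examined (Ddx3y, Eif2s3y, Kdm5d and Uty) had reads in the WT library and were listed at 0 in the Kai1 KO library, so that the sex of the cells and the genotype cannot be told apart.

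Integrins work as receptors in both directions. Talins and kindlins bind the tail of the beta subunit and turn the receptor to its active form, and once it holds its ligand, a complex of kinases and adaptors gathers at the tail and links it to actin fibres. In mural cells such contacts carry the tension between the contractile apparatus and the vessel wall, and fibronectin, collagen, laminin and vitronectin receptors are the main integrin classes on them.

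The integrin subunits as a group had lower values in the Kai1 KO library, and the focal adhesion proteins had values closer to WT. A gene was called expressed where its RPKM averaged 1 or more across WT and Kai1 KO, which held for 23 of the 40 genes, 11 integrin subunits and 12 focal adhesion proteins. On the scale of log2(RPKM + 0.1), the ratio of Kai1 KO to WT was below 0 in all 11 integrin subunits and in 9 of the 12 focal adhesion proteins, together 20 of 23, where 44.9% of all 10068 expressed genes were below 0. Itga1, Itga3, Itga9 and Itgb7 had an RPKM below 1 in Kai1 KO and passed the filter through WT alone, which fixed their ratio below 0. Of the 12 genes left out by the filter with at least 10 estimated reads in either library, 8 were lower in Kai1 KO. Itga7, Itgb4, Itgae and Fermt3 were higher. The median log2 ratio was -0.99 over the 11 integrin subunits, -0.20 over the 12 focal adhesion proteins, -0.68 over all 23, and 0.08 over the 10068 genes. More than 2-fold lower were 6 of the 23, namely Itga11, Itga9, Itgb7, Itgav, Tln2 and Itga2b, where 7.81% of the 10068 genes were. More than 2-fold higher were 0 of the 23, where 7.98% of the 10068 genes were. Just short of 2-fold lower stood Itgb5 (log2 ratio -0.99) and Itga5 (-0.96), and just beyond it Itga2b (-1.03).

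Counted over all 40 genes, expressed or not, 11 passed 2-fold in the lower direction, where 9.29% of all 20211 symbols did, and 0 in the higher one, where 5.96% did. The counting interval lay wholly below WT in 19 of the 23 genes, wholly above WT in 2 (Ilk and Zyx) and held the WT level in 2 (Pxn and Lims1). Among 9163 expressed genes with an annotated transcript over 800 bases, 35.5% lay below WT and 43.9% above by the same measure, so that most genes of these libraries differed by more than counting error. Scaling both libraries to Gapdh, which was itself higher in the Kai1 KO library, moved the median of the 10068 genes to -0.41, and with it 13 of the 23 genes were more than 2-fold lower, where 18.4% of the 10068 were. Under that scaling Ilk, Lims1 and Zyx turned to ratios below 0. The median log2 ratio was then -1.49 over the 11 integrin subunits and -0.70 over the 12 focal adhesion proteins.

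**Figure D1:**
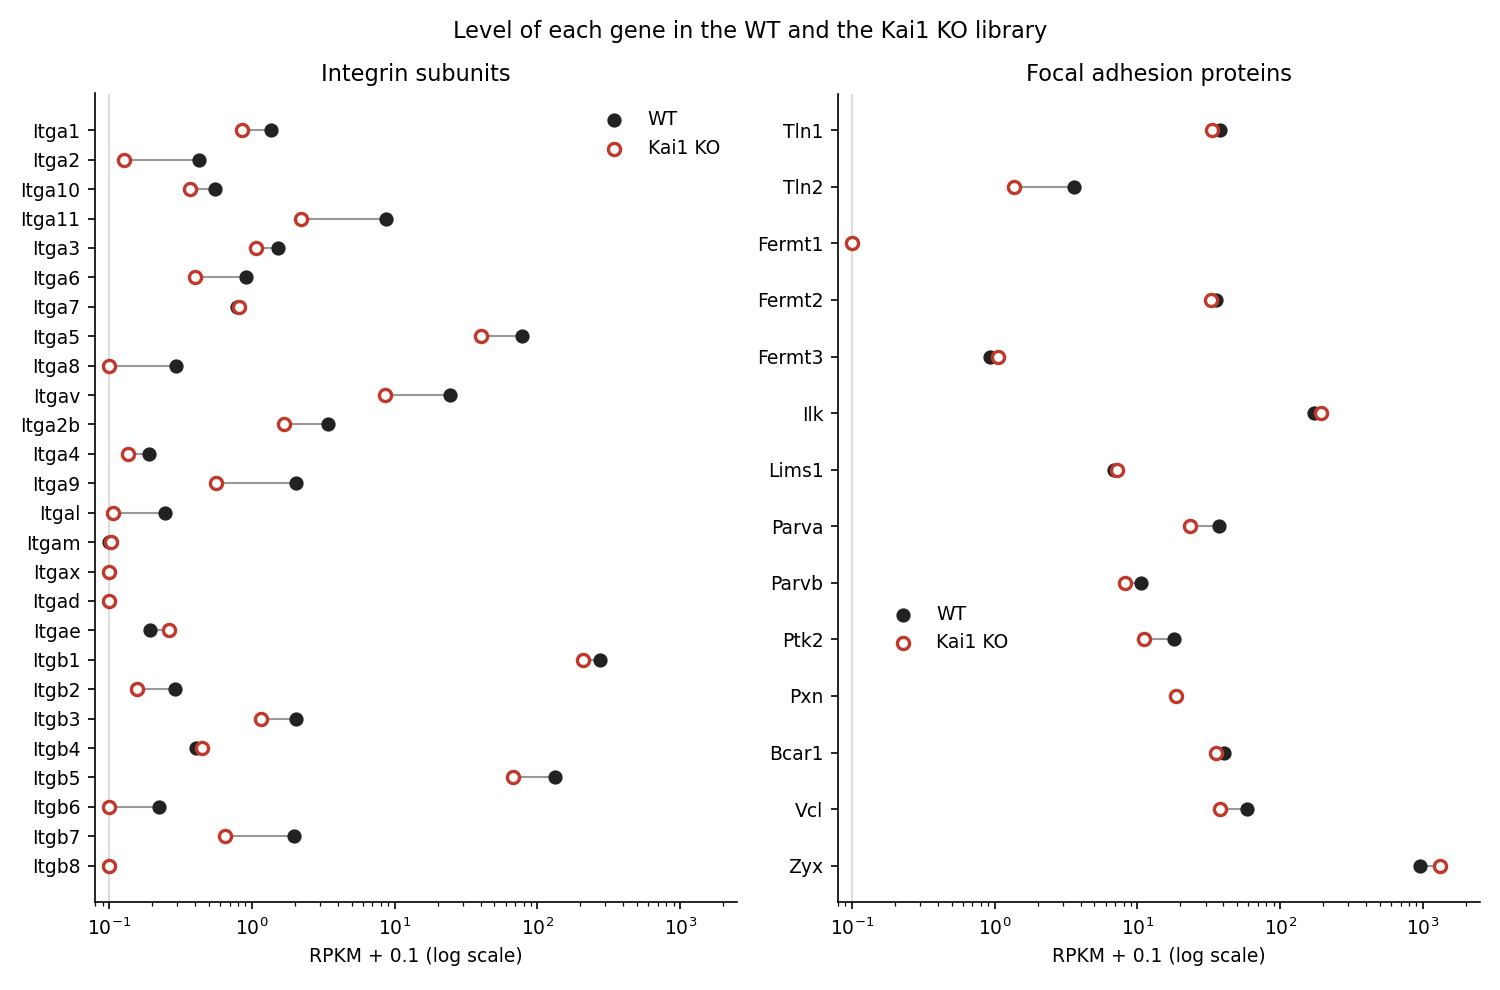
Level of each of the 40 genes in the WT library (filled black points) and the Kai1 KO library (open red points), as RPKM + 0.1 on a log axis, with integrin subunits on the left and focal adhesion proteins on the right. The vertical line at 0.1 marks an RPKM of 0. The open points lie left of the filled ones in all 11 expressed integrin subunits. Zyx, Ilk and Lims1 lie to the right, a direction that turned when both libraries were scaled to Gapdh. Among genes with a mean RPKM below 1 and at least 10 estimated reads in either library, Itga7, Itgb4, Itgae and Fermt3 also lie to the right.

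The beta subunit decides which alpha subunits can be displayed at the surface, and Itgb1 pairs with the largest number of them. Itgb1 (chromosome 8, 131209554 to 131257100, NCBI37) had an RPKM of 273 in WT and 207 in Kai1 KO, which was 76.0% of WT (counting interval 74.7% to 77.4%). Itgb5, the partner of alpha v in a vitronectin receptor (chromosome 16, 33829751 to 33949239), had an RPKM of 133 in WT and 67.2 in Kai1 KO, or 50.4% of WT (48.7% to 52.1%). The abundant beta subunits were thus both lower, and Itgb5 was lower by more than Itgb1, with counting intervals that do not overlap.

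Itgb3, the other main partner of alpha v and the beta subunit of the platelet fibrinogen receptor, had an RPKM of 1.92 and 1.07, a log2 ratio of -0.80. Itgb7, a beta subunit of lymphocytes, had an RPKM of 1.88 and 0.545, or 28.9% of WT (19.5% to 42.2%), from an estimated 138 and 36 reads. These genes lay far below Itgb1 and Itgb5 in both libraries. Itgb4, the hemidesmosome subunit, had an RPKM of 0.308 and 0.348, and its counting interval of 76.7% to 167% of WT held the WT level. Itgb2, the leukocyte beta subunit, had an RPKM of 0.190 and 0.0562, from 16 and 4 estimated reads. Itgb6, known from epithelia, had an RPKM of 0.125 in WT from about 17 reads and was listed at 0 in Kai1 KO, and the 3 reads that a count of 0 allows make it at least 5.11-fold lower if the WT reads are taken as exact. Its counting interval, which includes the error of the WT reads, reached up to 27.0% of WT. Itgb8 was listed at 0 in both libraries.

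Read as shares of the beta subunits' summed RPKM, Itgb1 made up 66.4% ± 0.243 (SE from counting) in WT and 74.97% ± 0.289 in Kai1 KO. The share of Itgb5 was 32.5% ± 0.242 in WT and 24.3% ± 0.287 in Kai1 KO. A share within the family does not move with the scaling of the libraries. The other 6 beta subunits together held 1.08% of the sum in WT and 0.729% in Kai1 KO.

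Of the RGD-binding alpha subunits, which recognise a short motif in fibronectin and vitronectin, Itga5 was the most abundant alpha subunit of both libraries. Itga5, the fibronectin receptor subunit (chromosome 15, 103174720 to 103197194), had an RPKM of 78.1 in WT and 40.0 in Kai1 KO, or 51.2% of WT (49.4% to 53.1%). Itgav, the vitronectin receptor subunit that also binds latent TGF-beta (chromosome 2, 83564554 to 83647073), had an RPKM of 24.4 and 8.40, or 34.4% of WT (32.5% to 36.4%). Both were lower in the Kai1 KO library, and Itgav was lower by the larger factor, with intervals apart from those of Itga5 and of its partner Itgb5. The ratio of Itgb5 to Itgav in RPKM was 5.46 in WT and 8.0 in Kai1 KO.

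Itga2b, the alpha subunit of the platelet fibrinogen receptor, had an RPKM of 3.31 in WT and 1.57 in Kai1 KO, or 47.6% of WT (38.5% to 58.1%), an interval that holds a ratio on either side of the 2-fold line. Of 6 platelet markers, Ppbp, Gp9 and Gp6 were listed at 0 in both libraries, Gp5 had an RPKM of 0.0338 and 0.337, Pf4 was at 2.19 in WT and listed at 0 in Kai1 KO, and Gp1bb was at 124 and 117. The part of platelet RNA in the values of Itga2b was not tested. Itga8, which pairs with beta1 and binds nephronectin in smooth muscle and mesenchyme, had an RPKM of 0.193 in WT, from about 32 reads, and was listed at 0 in Kai1 KO, which makes it at least 9.62-fold lower against a floor of 3 reads if the WT reads are taken as exact. With the error of the WT reads included, its counting interval reached up to 13.6% of WT.

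The collagen-binding alpha subunits were all lower in the Kai1 KO library. Itga11, the receptor subunit for fibrillar collagen on fibroblasts and other mesenchymal cells (chromosome 9, 62525633 to 62631789), had an RPKM of 8.57 in WT and 2.12 in Kai1 KO, or 24.8% of WT (21.6% to 28.3%). It was the most abundant collagen receptor subunit in both libraries. Itga1, a collagen receptor subunit of smooth muscle, had an RPKM of 1.26 and 0.7503, or 59.5% of WT (46.8% to 74.6%). Itga10, known from cartilage, had an RPKM of 0.453 and 0.270, or 59.7% of WT (38.5% to 91.7%). Itga2, the collagen receptor subunit of platelets and epithelia, had an RPKM of 0.328 and 0.0279, from about 39 and 3 reads, or 8.53% of WT (1.69% to 26.9%).

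The laminin-binding subunits were low in both libraries. Itga3 had an RPKM of 1.44 and 0.973, or 67.7% of WT (53.8% to 85.7%), and Itga6 had 0.809 and 0.299, or 36.9% of WT (24.5% to 56.1%). Itga7, the laminin receptor subunit of muscle, had 0.689 and 0.715, and its interval of 74.7% to 142% held the WT level. The subunits of this class thus differed among themselves, with Itga6 lower and Itga7 within its counting error.

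Itga9, which pairs with beta1 and binds tenascin and other ligands (chromosome 9, 118515808 to 118810121), had an RPKM of 1.94 in WT and 0.462 in Kai1 KO. This was 23.8% of WT (18.6% to 30.3%), close to the 24.8% of Itga11, and the counting intervals of these genes overlap. Its relative Itga4, the VCAM-1 receptor subunit, was at 0.0904 and 0.0349, from about 26 and 9 reads.

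The leukocyte alpha subunits were at or near 0. Itgax and Itgad were listed at 0 in both libraries, and Itgam had less than 1 estimated read in each. Itgal had an RPKM of 0.148 in WT and 0.00745 in Kai1 KO, from about 22 reads and 1 read, or 5.04% of WT (0.123% to 31.3%). Itgae was at 0.0928 and 0.165, from 10 and 16 reads, with an interval of 76.0% to 439% that held the WT level. Of 12 leukocyte markers, Emr1, C1qa and C1qb were listed at 0 in both libraries, the pan-leukocyte marker Ptprc was at 0.0407 and 0.00697, and the summed RPKM of the list was 39.9 in WT and 9.39 in Kai1 KO, most of it from Csf1r, Fcer1g and Tyrobp. The part of leukocytes in the lower Itgb7, Itgb2 and Itgal was not tested, and in bulk RNA fewer cells of a type cannot be told apart from less RNA per cell.

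Summed over the family, the alpha subunits had an RPKM of 122 in WT and 55.8 in Kai1 KO, or 45.8% of WT, and the beta subunits 410 and 276, or 67.4%. The ratio of the alpha sum to the beta sum was 0.297 in WT and 0.202 in Kai1 KO. Within the alpha subunits Itga5 held 64.1% ± 0.358 (SE from counting) in WT and 71.7% ± 0.523 in Kai1 KO, Itgav 20.03% ± 0.270 and 15.04% ± 0.371, and Itga11 7.03% ± 0.195 and 3.80% ± 0.228. Although both members of the fibronectin receptor pair, Itga5 and Itgb1, were lower in the Kai1 KO library, each made up a larger share of its family there.

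**Figure D2:**
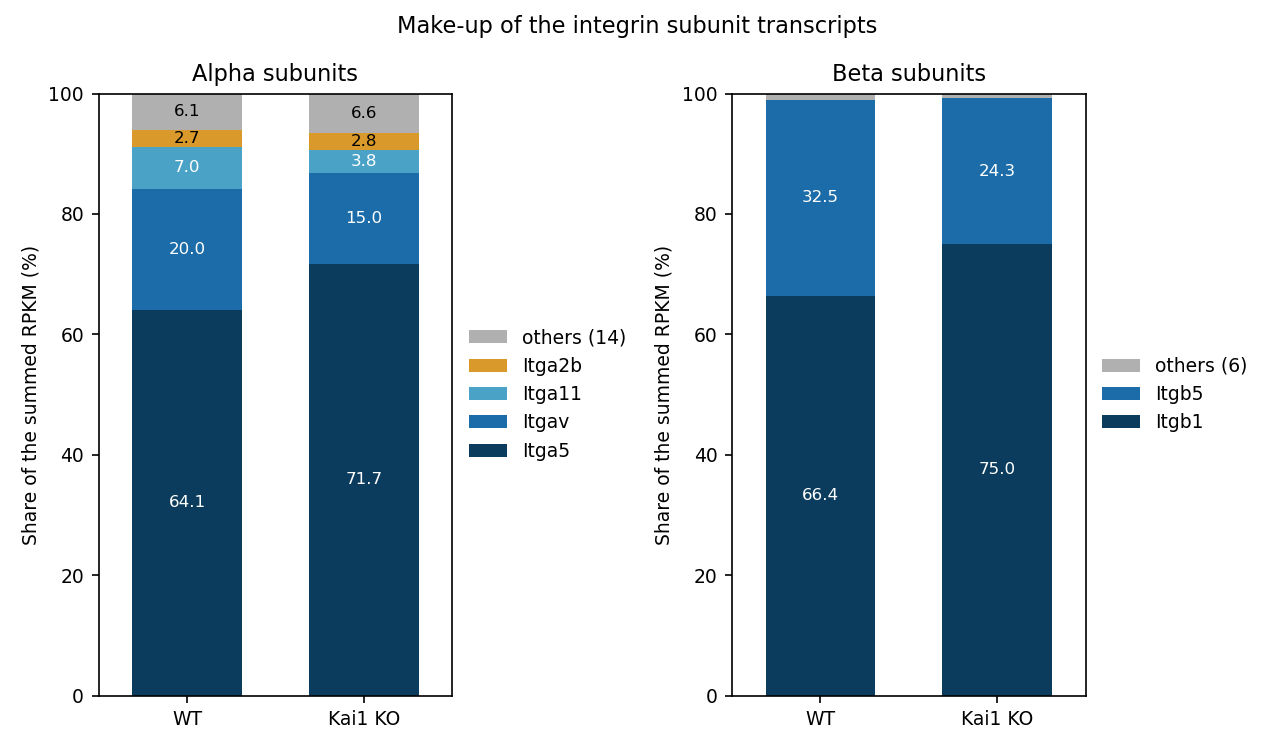
Share of each subunit in the summed RPKM of the 18 alpha subunits (left) and the 8 beta subunits (right), in percent, with 1 bar per library. Itga5 and Itgb1 take a larger share in the Kai1 KO bar, at 71.7% against 64.1% and at 74.97% against 66.4%, and Itgav, Itga11 and Itgb5 a smaller one.

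In the deposited values the activators of integrins were near their WT levels except for Tln2. Scaled to Gapdh, the log2 ratio was -0.70 for Tln1 and -0.61 for Fermt2. Tln1, the talin of most cells (chromosome 4, 43544391 to 43575563), had an RPKM of 38.1 in WT and 33.1 in Kai1 KO, or 86.9% of WT (84.3% to 89.7%). Tln2, the talin known from muscle and brain (chromosome 9, 67064894 to 67407510), had an RPKM of 3.53 and 1.26, or 35.8% of WT (31.9% to 40.1%). The talins differed from each other in their ratio to WT, and Tln1 exceeded Tln2 by a factor of 10.8 in WT and 26.2 in Kai1 KO. Fermt2, the kindlin of mesenchymal cells, had an RPKM of 35.3 and 32.7, or 92.5% of WT (87.9% to 97.4%). Fermt3, the kindlin of blood cells, was at 0.835 and 0.957 with an interval of 79.1% to 167%, and Fermt1, that of epithelia, had less than 1 estimated read in each library.

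The complex of Ilk, PINCH and parvin sits between the beta tail and actin, and its genes differed among themselves. Ilk, the scaffold of the complex, had an RPKM of 174 and 192, or 110% of WT (107.5% to 113.5%), and turned to a log2 ratio of -0.36 when both libraries were scaled to Gapdh. Of its 2744 annotated exon bases 2106 are shared with Taf10 on the opposite strand, which had an RPKM of 440 and 657, and since strand-specific counting is not stated the reads of these genes may not be separated. Lims1, which encodes PINCH1, had an RPKM of 6.81 and 7.11, with an interval of 94.5% to 115% of WT. Lims2, its paralogue and no member of the set, was at 37.9 and 12.0, or 31.8% of WT, so that the ratio of Lims1 to Lims2 was 0.180 in WT and 0.590 in Kai1 KO. Parva had an RPKM of 37.2 and 23.2, or 62.3% of WT (59.8% to 65.0%), and Parvb 10.5 and 8.08, or 76.8% (70.0% to 84.2%), so that both parvins were lower while Ilk and Lims1 were not, although scaling to Gapdh put Ilk and Lims1 below WT too and setting the median of all genes to 0 put Lims1 at a log2 ratio of -0.02.

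Of the 3 signalling scaffolds, Ptk2, the focal adhesion kinase FAK (chromosome 15, 73035535 to 73253621), had the lowest ratio to WT. Its RPKM was 17.9 in WT and 11.0 in Kai1 KO, or 61.2% of WT (57.1% to 65.5%). Its binding partner Pxn, paxillin, had an RPKM of 18.5 in both libraries, with an interval of 93.3% to 106% of WT. Scaled to Gapdh, the log2 ratio of Pxn was -0.50. Bcar1, the Src substrate p130Cas, had 40.4 and 35.3, or 87.5% of WT (83.2% to 92.0%).

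The genes at the actin end, Vcl and Zyx, differed in direction unless both libraries were scaled to Gapdh, which put both below WT. Vcl, vinculin, which reinforces the link of talin to actin under tension (chromosome 14, 21748655 to 21852895), had an RPKM of 58.3 and 38.0, or 65.2% of WT (63.0% to 67.5%), although 2087 of its 5229 exon bases are shared with Ap3m1 on the opposite strand, which was at 8.15 and 7.66. Zyx, zyxin, which is recruited to strained actin fibres (chromosome 6, 42299827 to 42310145), was the most abundant of the 40 genes, with an RPKM of 956 and 1308, or 137% of WT (135.6% to 138.1%). Zyx thus exceeded Vcl by a factor of 16.4 in WT and 34.4 in Kai1 KO. The higher Zyx depended on the scaling, since its log2 ratio of 0.45 became 0.37 with the median of all genes set to 0, 0.32 with equal upper quartiles and -0.05 with both libraries scaled to Gapdh.

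**Figure D3:**
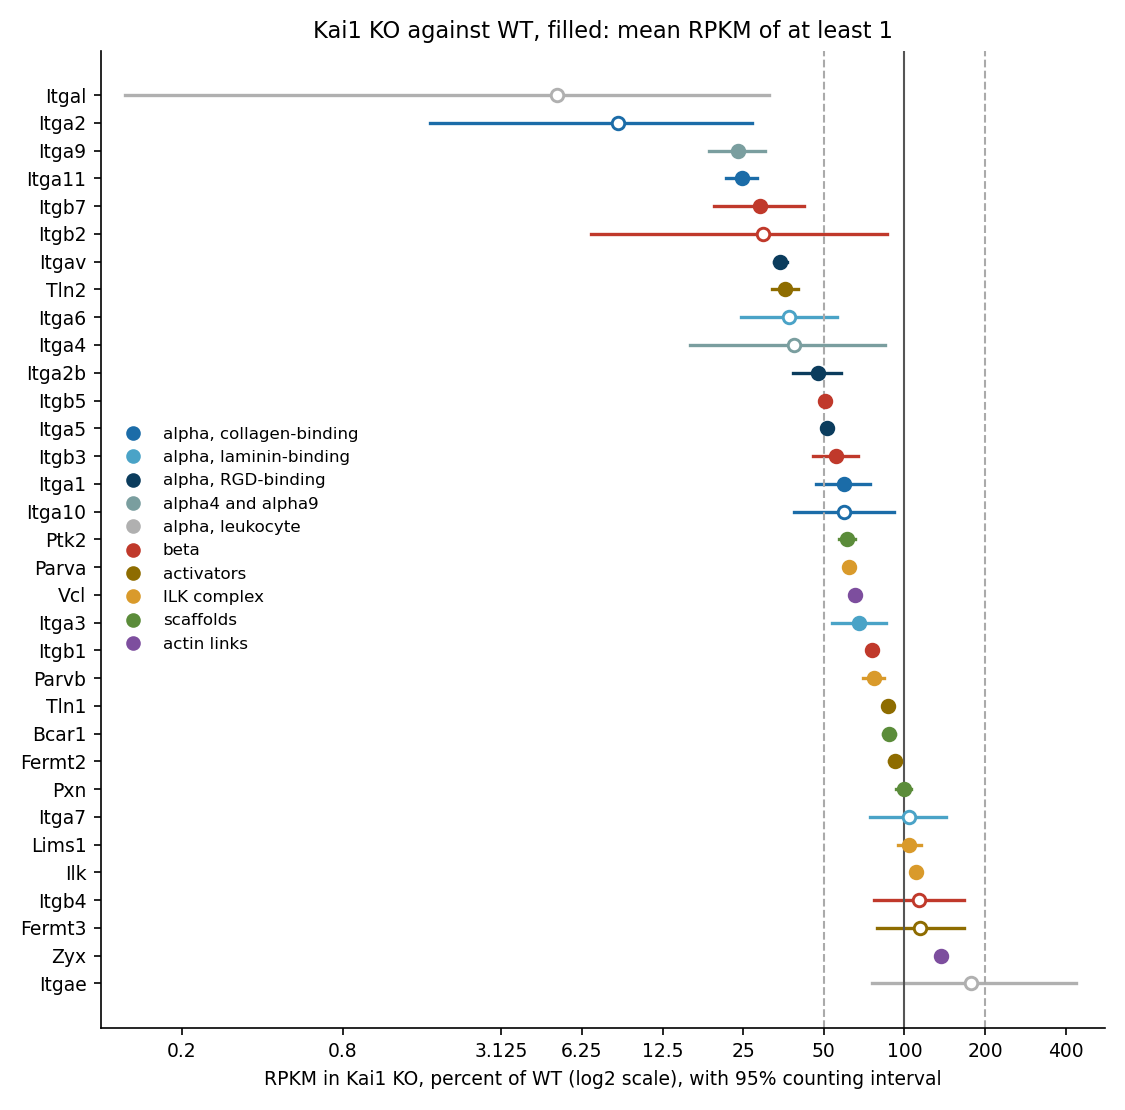
RPKM in the Kai1 KO library as percent of WT (log2 axis) for the 33 genes with at least 10 estimated reads in WT and at least 1 in Kai1 KO, coloured by role, with lines for the 95% counting interval and filled points for expressed genes. The solid line marks the WT level and the dashed lines a 2-fold difference. Of the expressed genes Itga9, Itga11, Itgb7, Itgav and Tln2 lie with their whole intervals below the 2-fold line, as do Itga2 and Itgal among the others, and Itga5 and Itgb5 at it.

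**Figure D4:**
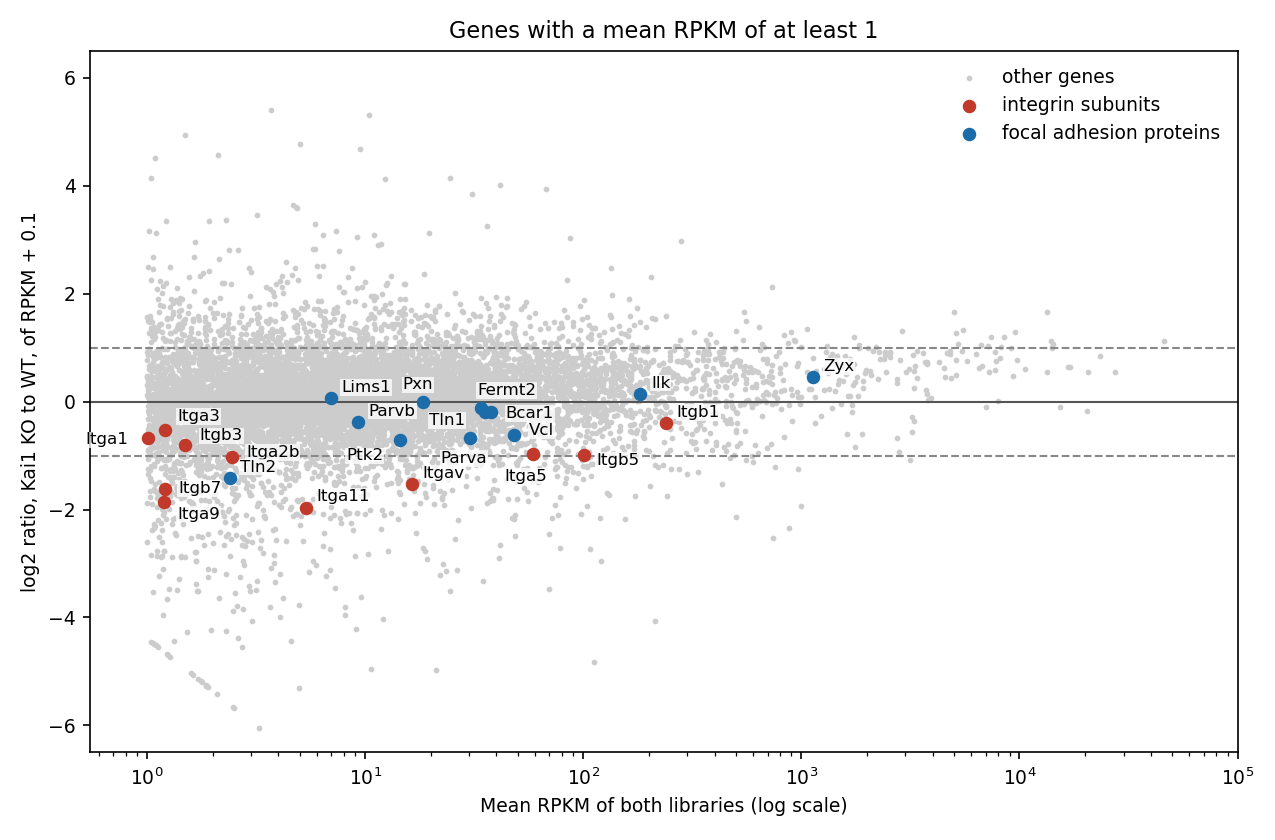
Log2 ratio of Kai1 KO to WT of RPKM + 0.1 against the mean RPKM of both libraries (log axis), for the 10068 expressed genes, of which 4 lie outside the vertical range. The integrin subunits (red) lie below 0 across the range of levels, with a median of -0.99, and the focal adhesion proteins (blue) have a median of -0.20.

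The set is made of long transcripts, and a lower median ratio went with length across all genes. Among 9489 expressed genes with a length, split into 5 equal groups by their longest annotated transcript, the median log2 ratio was 0.26 in the shortest group and -0.04 in the longest, which began at 4717 bases. The share more than 2-fold lower did not rise with length, at 10.4% in the shortest group and 6.96% in the longest. Of the 23 genes 10 fell in the longest group, with a median of -0.74 and 4 more than 2-fold lower, where 6.96% of that group's 1896 genes were. The 6 genes from 3477 to 4715 bases had a median of -0.39 and 0 more than 2-fold lower, where 6.80% of that group were. The 6 from 2574 to 3476 bases had a median of -0.59 and 2 more than 2-fold lower, where 7.53% were. The 1 gene from 1713 to 2573 bases had a log2 ratio of 0.14. The level of expression also went with the ratio. Of the 7 genes with a mean RPKM from 1 to 5, 4 were more than 2-fold lower, where 12.7% of all genes at that level were, of the 6 from 5 to 20, 2 were, where 5.597% were, and of the 6 from 20 to 100 and the 4 above it, 0 were. The part of length and level in the lower values was not tested.

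A list of 55 further adhesion proteins, the adaptors and actin linkers around the same receptors, had a median log2 ratio of -0.22 over the 50 that were expressed, of which 10 lay more than 2-fold below WT and 0 above, where 7.81% and 7.98% of all expressed genes did. Among the largest ratios in size were those of Efs, a relative of Bcar1, with an RPKM of 20.8 in WT and 0.577 in Kai1 KO, and of Sorbs2 (4.42 and 0.717), Nck2 (2.14 and 0.581) and Lims2 (37.9 and 12.0). Efs was at 2.78% of WT, while its relative Bcar1 was at 87.5%. Sorbs2 is an SH3 adaptor that binds vinculin.

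Of 35 genes that encode integrin ligands or counter-receptors, 27 were expressed, with a median log2 ratio of -0.54, with 7 more than 2-fold below WT and 1 above, beside the same 7.81% and 7.98% of all expressed genes. The log2 ratio was below 0 in 20 of the 27 and above 0 in 7. Fn1, the fibronectin bound by Itga5 and Itgb1, had an RPKM of 510 and 303, and Col1a2, a chain of the collagen bound by Itga11, 824 and 377. In the other direction went the fibrillar collagen Col3a1 (67.5 and 101) and Postn (17.1 and 20.7). The largest ratios in size were those of Icam1, a ligand of the leukocyte integrins (6.69 and 0.704), Npnt, the nephronectin bound by Itga8 (43.7 and 9.44), Thbs1 (818 and 185), the laminin chain Lama4, which was higher (3.35 and 11.5), and Tgfbi (4.50 and 1.99). Fn1, Col1a2, Col3a1 and Postn were named after their values were seen.

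The tetraspanins known to sit beside integrins differed in direction among themselves. Of 8 such genes 6 were expressed, and of these Cd82 alone was more than 2-fold apart. Cd9 had an RPKM of 78.7 in WT and 148 in Kai1 KO, Cd81 389 and 235, and Cd151, the partner of laminin receptors, 238 and 267, while Tspan4 had 38.7 and 60.05. Their median log2 ratio was 0.15, and it turned to -0.35 with both libraries scaled to Gapdh.

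Several marker lists were also lower in the Kai1 KO library. The summed RPKM of 12 mural markers was 4646 in WT and 2978 in Kai1 KO, most of it from Acta2, and 9 of them reached an RPKM of 1 in either library. Of the 12, 4 were expressed and more than 2-fold lower, where 7.81% of the 10068 expressed genes were. These were Mcam (4.90 and 0.264) and, of the contractile apparatus, Myh11 (2.96 and 0.346), Cnn1 (120 and 49.2) and Tagln (633 and 307). The pericyte markers Rgs5 (0.0630 and 0.233) and Kcnj8 (listed at 0 in WT and at 0.791 in Kai1 KO) were low and had the higher value in Kai1 KO. The sum of 8 fibroblast markers was 2616 and 1493. The sum of 12 endothelial markers was 3.58 and 7.39, of which Egfl7 made up 2.28 and 7.39, 4 of them were listed at 0 in both libraries, and the endothelial cadherin Cdh5 was at 0.0267 in WT and listed at 0 in Kai1 KO. The 8 epithelial markers summed to 0.801 and 1.03 and the 4 glial markers to 14.0 and 3.26, the latter mostly from S100b. The part of these cells, or of the contractile state, in the integrin values was not tested.

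Promoters were searched for the CArG box, the site of serum response factor, a regulator of contractile and adhesion genes to which vinculin is known to answer. RefSeq promoters (250 bases before to 50 after the start, build GRCm38.p6) were found for 28 of the 40 genes, 34 promoters in all, and 3 of these held a box, where 1.63% of all 32851 promoters did. A box on one strand is also a box on the other. The windows of 30 bases around it are shown on the strand of the gene, with the box in capitals. They set Vcl, whose level was lower, beside Fermt2, near WT in the deposited values, and Itgb6, which was hardly expressed. The Vcl window lies on chromosome 14 from 20929161 to 20929190 (plus strand), that of Fermt2 on chromosome 14 from 45530250 to 45530279 (minus strand) and that of Itgb6 on chromosome 2 from 60673724 to 60673753 (minus strand).
Vcl: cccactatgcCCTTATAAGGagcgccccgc
Fermt2: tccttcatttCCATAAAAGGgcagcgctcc
Itgb6: cacctgacttCCTTATAAGGtgaatgagga
The box of Vcl lies from position -227 to -218 relative to the transcription start, that of Fermt2 from -204 to -195 and that of Itgb6 from -50 to -41. The same letters in the box of Vcl and Itgb6 stood with different levels, an RPKM of 58.3 against 0.125 in WT, and a match is a description of the sequence and does not show binding.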

How the data were processed

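RNA was extracted from WT and Kai1 KO PVCs and sequenced, 1 library each. The authors aligned the reads to mm9 (NCBI37) with TopHat 2.0.9 and Bowtie, and deposited 1 RPKM value per RefSeq gene and library. Cufflinks is named in the submitters' processing notes, and strand-specific counting is not given in the sources used here.

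From the deposited RPKM tables (20462 rows), 38 lines with no symbol were dropped, and the lines of 153 symbols listed more than once were averaged. None of the 40 genes was among them. The log2 ratio used a pseudocount of 0.1 RPKM, which understates the change of low genes. Counts over genes used those whose RPKM averaged at least 1, called expressed, and a 2-fold difference, the fold part of the authors' definition. No test was possible with 1 library per genotype.

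Depth was estimated by fitting low RPKM values of genes with 1 annotated transcript over 800 bases to whole reads, at a fragment length of 200 bases. Of 486 such values in WT 80.7%, and of 305 in Kai1 KO 79.7%, came within 0.15 of a whole number. The read estimate of each gene took the longest GENCODE M1 transcript (NCBI37) and is approximate. PCR duplicates are not separated, so intervals and floors cover counting error only. With the fragment length left free, the best fit for Kai1 KO was at 220 bases and 27 M reads. The depth fit and the ratios were also run on simulated data. These were made with the same transcript lengths and fragment length, so the run cannot check those choices.

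The genes, lists and tests were chosen with earlier results of these data known. All 40 genes are named, and of each further adhesion list the 5 genes with the largest ratio in size. Some values that this rule would give are not reported here. Alternatives were other pseudocounts, scalings and filters. The computations used Python 3.11.15, numpy 2.4.6, pandas 2.3.3, scipy 1.17.1 and matplotlib 3.10.9. Protein sequences were not used here.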

Additional observations from a re-analysis of the deposited data

How the results depend on the processing

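For the 23 expressed genes, recomputed under 5 alternatives, 64 of 115 log2 ratios stayed within the counting interval. The 11 integrin subunits among them stayed below 0 under each of these 5 alternatives, though none of the alternatives could have turned a ratio below 0. A pseudocount does not change the sign of a ratio. The scalings multiplied the Kai1 KO values by 0.944 (median set to 0), 0.915 (equal upper quartiles) or 0.707 (Gapdh), which lowers every ratio. The signs of Ilk, Lims1 and Zyx turned when both libraries were scaled to Gapdh, and that of Lims1 also with the median set to 0 and with equal upper quartiles. The number more than 2-fold lower was 6 (7.81% of all genes at this setting), and it was 13 with both libraries scaled to Gapdh (18.4% of all genes), 11 of 40 without the filter on mean RPKM (9.29%) and 2 of 16 at a mean RPKM of at least 5 (5.37%). It was 4 with a pseudocount of 1 RPKM (5.68% of all genes), which left out Itga2b and Itgb7, and 8 with the median set to 0 (9.02%) or equal upper quartiles (9.70%), which added Itga5 and Itgb5. The number more than 2-fold higher was 0 throughout, which the scalings could not have raised. The median log2 ratio of -0.68 became -0.50 with a pseudocount of 1 RPKM, -0.79 with equal upper quartiles, -1.11 scaled to Gapdh, -0.55 without the filter and -0.39 at a mean RPKM of at least 5. The scalings multiply every Kai1 KO value by the same factor, and the filters change how many genes are counted. No gene of the set stood on more than 1 row, so summing rows gave no other value. Low levels limit Itga8, Itgb6, Itgal, Itga2, Itgb2, Itga4 and Itgae, which have 16 reads or fewer in the Kai1 KO library. No paired analysis was possible because neither genotype had a second library to pair.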
